A study of Mus musculus with 24 samples.

Results

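Expression in mouse inguinal fat, which lies under the skin, was compared at circadian time CT12 between 3 mice lacking Bmal1 in adipocytes and 3 control mice. The members were the 3 arrays whose titles give CT12 and Ad-Bmal1-/- and the 3 whose titles give CT12 and control, 6 of the 24 arrays of the series. The knockout mice carried aP2-Cre+/- and Bmal1fx/fx, and the control mice carried Bmal1fx/fx without Cre, so an effect of the recombinase itself cannot be told apart from the deletion. Both were C57BL/6J mice of at least 6 generations of crossing, on chow, whose ages are not given. They had been in darkness for 36 h at the start of collection and had been fasted for 24 h. CT12 is the end of the subjective day. The other 18 arrays, of the same genotypes at CT0, CT6 and CT18, with 3 mice per group, served to estimate the residual spread and to set CT12 against the other times. The aP2 promoter is known to be active in adipocytes and has been reported to be active in some macrophages and endothelial cells, and the cells that recombined were not measured here.

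BMAL1, the product of Arntl, pairs with CLOCK, and the dimer binds E-boxes, a short DNA element, to switch on the period, cryptochrome, REV-ERB and PAR bZIP genes. The period and cryptochrome proteins then inhibit the dimer. The REV-ERB proteins compete with ROR activators at a second element and repress Arntl, Nfil3, Cry1 and Clock, while DBP, TEF and HLF compete with NFIL3 at the D-box. In fat, the clock is known for daily rhythms of lipid storage, lipolysis and adipokine release.

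Values are log2 expression on the deposited scale, and a difference is knockout minus control with the standard error (SE) of a limma fit over all 24 arrays. The label of fat held at the marker level, which says nothing on the depot. Adipoq, the adipocyte hormone adiponectin, read 12.01, 11.91 and 12.08 in the knockout pads, against 12.13, 11.92 and 12.02 in the control pads. Markers of mesothelium, the lining of body cavities, had a median level of 8.20 over the 24 arrays, beside 6.50 for all genes. Which depot was sampled was not tested. The median of all 19938 genes lay between 6.47 and 6.52 on the 6 arrays. Which exons of Bmal1 were floxed is not in the labels, and the Arntl probes could lie outside them, so the Arntl values do not check the deletion.

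The CT12 arrays were set against their labels, and replicate 1 of both groups lay nearer the other genotype. Over all genes, control replicate 1 correlated best with knockout replicate 3, at r = 0.9957, against 0.9910 and 0.9913 with control replicates 2 and 3. With knockout replicates 1 and 2 it correlated at 0.9917 and 0.9914, about as with its own group. Its nearness over all genes thus rested mainly on knockout replicate 3. Knockout replicate 1 correlated at 0.9945 and 0.9956 with control replicates 2 and 3, against 0.9930 and 0.9934 with knockout replicates 2 and 3. These correlations run across genes, which are not independent replicates. The same position appeared on 20 genes that were chosen from the CT0 and CT6 arrays alone, 10 higher and 10 lower in knockout fat there. For 18 of the 20, knockout replicate 1 was nearer the mean of control replicates 2 and 3 than that of knockout replicates 2 and 3. For 15 of the 20, control replicate 1 was nearer the knockout replicates. Replicates 2 and 3 kept the direction of CT0 and CT6 for 19 of the genes, Prickle2 being the exception, and the replicate 1 pair ran against that direction for 20 of 20.

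Zim1, an imprinted zinc finger gene, read 8.33 in knockout replicate 1 and 10.27 and 9.41 in knockout replicates 2 and 3, against 9.21 in control replicate 1 and 7.16 and 6.90 in control replicates 2 and 3. Acsm5, a medium-chain acyl-CoA synthetase gene, showed the same crossing, at 8.37, 6.71 and 7.13 in knockout replicates 1, 2 and 3, against 7.25, 8.31 and 8.20 in the controls. In both genes each replicate 1 array read nearer the other genotype's replicates 2 and 3 than its own. Ces1d, a carboxylesterase that hydrolyses lipid esters, read 11.06, 9.99 and 10.26 in the knockouts, against 10.32, 10.93 and 11.09 in the controls. Acsm3, another acyl-CoA synthetase gene, read 9.71, 7.42 and 7.53 in the knockouts, against 7.14, 8.57 and 9.16 in the controls, the widest range of the 10 lower genes. No sample was moved to another group. Whether the labels of these 2 samples were exchanged was not tested, and an exchange would change what each comparison of 3 against 3 arrays measures. The counts over all genes, the clock genes and the gene lists described are given for the 6 arrays as labelled and again for replicates 2 and 3 of each group. Each list count is to be read beside the shares of all genes in the paragraphs that follow.

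**Figure D1:**
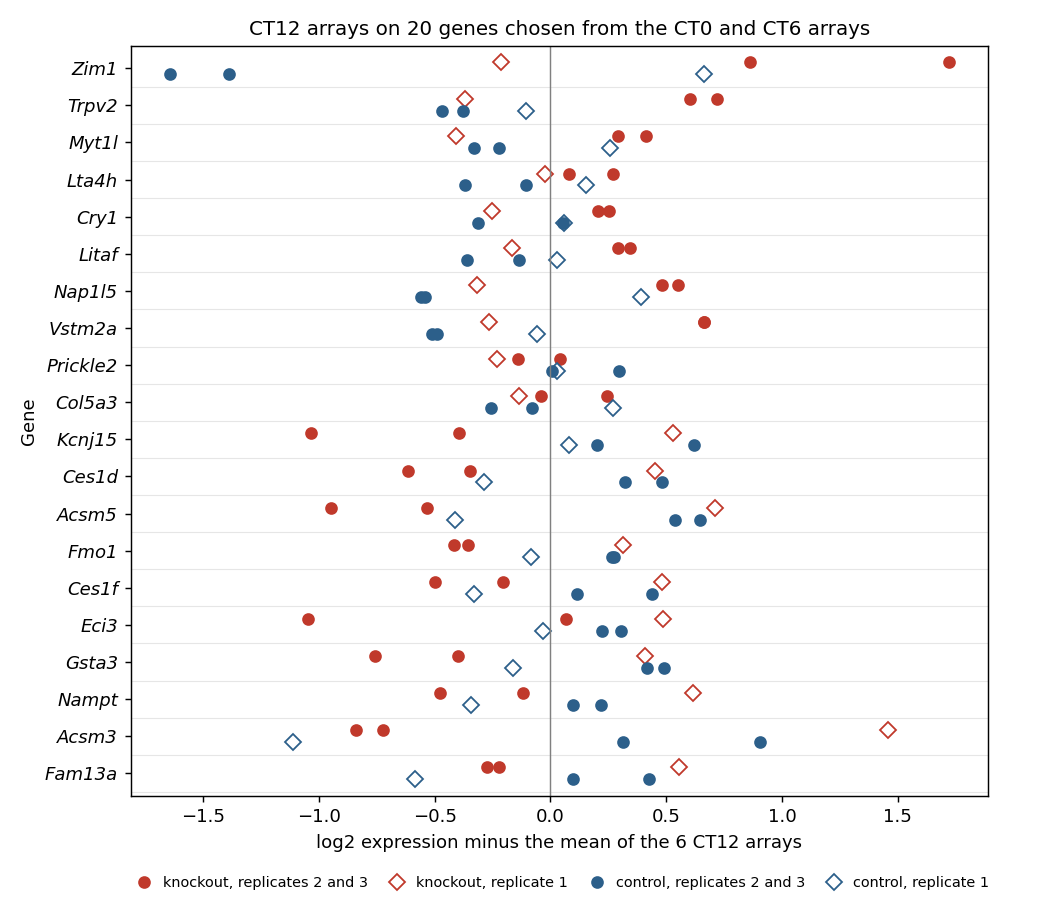
Each row is one of 20 genes chosen from the CT0 and CT6 arrays, and each point is a CT12 array, as log2 expression minus the mean of the 6 CT12 arrays. Red is knockout and blue is control, with replicate 1 as open diamonds. The open red diamonds lie nearer the filled blue points for 18 genes and the open blue diamonds nearer the filled red points for 15.

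With all 6 arrays as labelled, 0 of 19938 genes passed an adjusted p of 0.05 for genotype at CT12 (0% of genes, limma with Benjamini-Hochberg adjustment), and the lowest adjusted p was 0.9998. The unadjusted p was under 0.05 for 497 genes (2.49%), of which 167 were higher (0.838%) and 330 lower (1.66%) in knockout fat, where a p of 0.05 alone would give 997. With 1 array left out, there were 573, 289 and 733 such genes without knockout replicates 1, 2 and 3. Without control replicates 1, 2 and 3 there were 871, 350 and 555. List counts with 1 array left out are to be read beside these. The knockout arrays all lay above the control arrays for 592 genes (2.97%) and all below for 1020 (5.12%). Over all genes the median difference was -0.01, with 8699 differences above 0 (43.6%) and 11239 below (56.4%). In simulated data with the spread of these arrays, 61.2% of log2 changes of 0.5 were recovered, as were 97% of changes of 1 and 100% of changes of 2. In the same data 11 unchanged genes were called. The simulated arrays were drawn independently, and none was made to lie nearer the other genotype. These shares therefore do not say what could be recovered from the CT12 arrays as labelled.

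With replicates 2 and 3 alone, 1 gene passed (0.00502%), Hsph1, which encodes a large heat shock chaperone. Hsph1 read 8.48 and 8.39 in knockout replicates 2 and 3, against 7.44 and 7.77 in control replicates 2 and 3, and rose by 0.83 ± 0.12 (SE, limma adjusted p = 0.0396). The arrays left out were chosen for how they lay on genotype-related genes, so this p describes the arrays that remain and is no independent test. Its replicate 1 array read 7.71 in knockout fat, against 8.06 in control fat, and with both the difference was 0.43 ± 0.16. The count at an unadjusted p under 0.05 was 1018 genes (5.11%), of which 377 were higher (1.89%) and 641 lower (3.21%). Differences above 0 made up 42.7% and differences below 0 57.3% of all genes, beside a median of -0.02. Both knockout arrays lay above both control arrays for 3147 genes (15.8%) and below for 4722 (23.7%).

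Among the clock genes, which were 18 measured genes, knockout fat at CT12 read lower for the REV-ERB genes and higher for Nfil3 and Arntl, and none passed over all genes. At an unadjusted p under 0.05, 2 of 18 were higher and 3 lower, beside 0.838% and 1.66% of all genes. With replicates 2 and 3 alone 4 were higher and 6 lower, beside 1.89% and 3.21% of all genes. Without control replicate 2 the counts were 0 and 0, and without knockout replicate 3 or control replicate 3 they were 1 and 1. They were 1 and 2 without knockout replicate 2, 4 and 4 without knockout replicate 1, and 3 and 5 without control replicate 1. Knockout replicate 1 was nearer the other controls for 13 of the 18 genes, control replicate 1 was nearer the other knockouts for 14, and both held for 10.

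Arntl, the targeted gene, read 6.46, 6.89 and 6.87 in knockout fat, against 6.75, 6.04 and 6.22 in control fat. The groups overlapped only through the replicate 1 arrays, and the difference was 0.40 ± 0.16 with all arrays and 0.75 ± 0.15 with replicates 2 and 3. Clock, its partner, read 9.39, 9.77 and 9.70 in knockouts, against 9.71, 9.23 and 9.25 in controls, with a difference of 0.22 ± 0.14 that was 0.49 ± 0.15 with replicates 2 and 3. Among the activators that bind the ROR element, Rora differed by -0.08 ± 0.13 and Rorb by 0.18 ± 0.12, and with replicates 2 and 3 by -0.12 and 0.15. Rorb was the only activator gene whose groups did not overlap, at 5.12, 5.01 and 4.99 in knockouts, against 4.87, 4.97 and 4.74 in controls. These values lay below the median level of all genes, and 2.97% of all genes were separated in that direction.

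Nr1d1, which encodes REV-ERB alpha, was the 1 clock gene of 18 whose groups were separated in the lower direction with all arrays as labelled. Among all genes the share was 5.12%. Nr1d1 read 8.67, 8.36 and 8.43 in knockout fat, against 8.69, 9.19 and 8.98 in control fat, a difference of -0.47 ± 0.16. The margin between the 2 replicate 1 arrays was narrow, and the difference of replicates 2 and 3 was -0.69 ± 0.18. Nr1d2, which encodes REV-ERB beta, read 9.10, 8.77 and 8.48 in knockouts, against 8.72, 9.47 and 9.39 in controls, with differences of -0.41 ± 0.17 and, for replicates 2 and 3, -0.80 ± 0.14. The Nr1d2 groups overlapped through both replicate 1 arrays.

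Nfil3, the repressor that acts at the D-box, had the largest difference of the 18 clock genes. It read 7.30, 7.73 and 8.01 in knockout fat, against 7.62, 6.45 and 6.67 in control fat, a difference of 0.77 ± 0.26 that was 1.31 ± 0.24 with replicates 2 and 3. Control replicate 1 stood with the knockouts here. All 4 listed targets of REV-ERB repression, Nfil3, Arntl, Clock and Cry1, had differences above 0, with a median of 0.31 and of 0.62 for replicates 2 and 3. At an unadjusted p under 0.05, 2 were higher with all arrays and 4 with replicates 2 and 3, beside 0.838% and 1.89% of all genes. With 1 array left out, 4 were higher without knockout replicate 1, 3 without control replicate 1 and 0 without control replicate 2. Leaving out knockout replicate 2, knockout replicate 3 or control replicate 3 gave 1 each time.

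The genes driven from E-boxes gave 12 of 16 differences below 0, with a median of -0.16 beside -0.01 for all genes, and of -0.30 for replicates 2 and 3. Nr1d1, Nr1d2 and Per3 were the members past an unadjusted p of 0.05, and without control replicate 2 none was. The median was -0.05 without knockout replicate 3, -0.07 without control replicate 3 and -0.10 without control replicate 2. Per3, a period gene, read 8.19, 7.64 and 7.54 in knockouts, against 7.90, 8.36 and 8.14 in controls, at -0.34 ± 0.16. The knockout replicate 1 array read above control replicate 1 and between control replicates 2 and 3, and Per3 differed by -0.65 ± 0.17 with replicates 2 and 3.

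The remaining period and cryptochrome genes, which encode the inhibitors of the BMAL1 dimer, were not past an unadjusted p of 0.05. Per1 differed by -0.10 ± 0.14, Per2 by 0.14 ± 0.10, Cry1 by 0.14 ± 0.13 and Cry2 by 0.09 ± 0.11. The same genes differed with replicates 2 and 3 by -0.24, 0.07, 0.36 and 0.15. Cry1 read 7.14, 7.60 and 7.65 in knockouts, against 7.45, 7.08 and 7.45 in controls. The PAR bZIP genes, the D-box activators, all read lower, Dbp by -0.27 ± 0.16, Hlf by -0.24 ± 0.15 and Tef by -0.17 ± 0.10. Their differences for replicates 2 and 3 were -0.44, -0.47 and -0.30. Bhlhe40 and Bhlhe41, which encode repressors that compete at E-boxes, differed by 0.00 ± 0.12 and -0.01 ± 0.35, and Ciart, a further repressor of the dimer, by -0.16 ± 0.23. These 3 differed with replicates 2 and 3 by 0.05, 0.02 and -0.51.

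**Figure D2:**
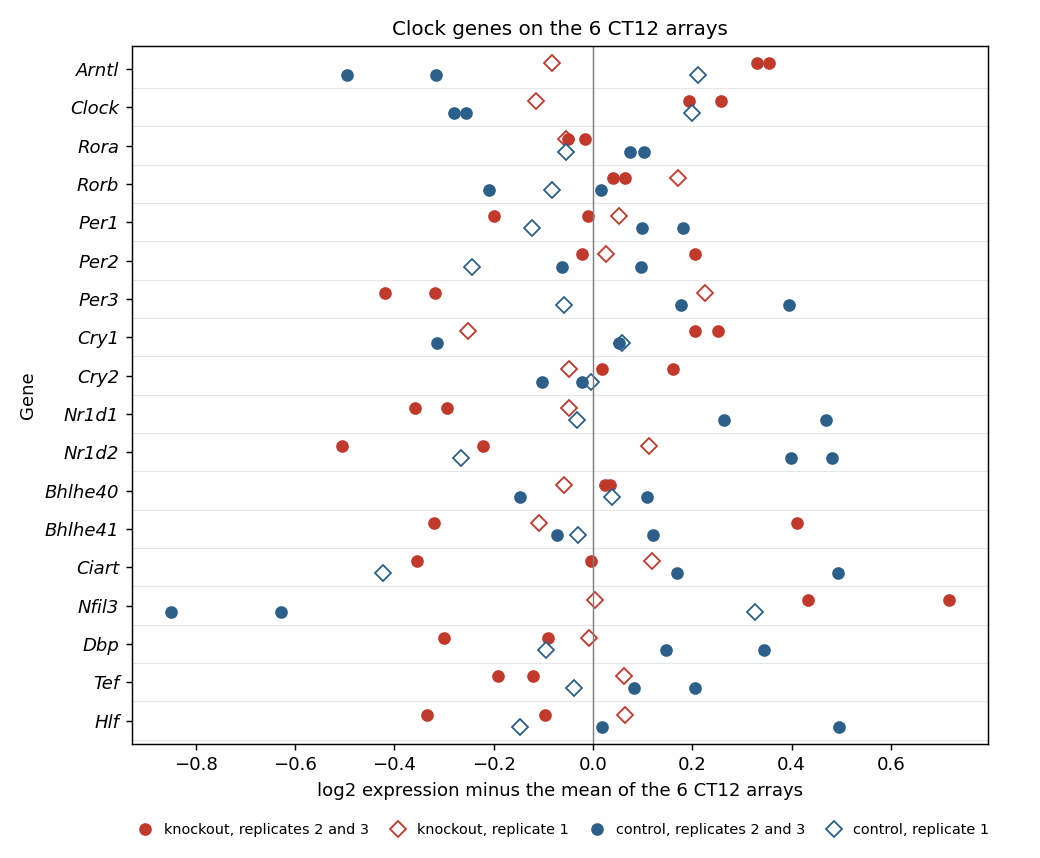
Each row is a clock gene and each point a CT12 array, as log2 expression minus the mean of the 6 CT12 arrays, with knockout in red, control in blue and replicate 1 as open diamonds. The filled red and filled blue points are apart for genes that include Arntl, Clock, Nr1d1, Nr1d2, Per3 and Nfil3, and the open diamonds of those 6 genes lie between them or on the other side.

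Promoters were read for the 3 elements, and 6 that hold one are printed as examples so that each element can be seen in place. Those of Nr1d1 and Nr1d2 held none of the 3. The E-box was searched as CACGTG, the ROR element as TAGGTCA or TGACCTA on the other strand, and the D-box as TTANGTAA on both strands, in the 250 bases before and 50 after each RefSeq start site of GRCm38.p6. The shares with a match were 7.15%, 2.61% and 2.32% of all 32851 promoters, or 8.09%, 2.97% and 2.72% of the 27025 genes they belong to. Of the 18 clock genes, 16 had a promoter sequence, of which 5 held the E-box, 2 the ROR element and 2 the D-box. Of the 10 named genes with the smallest p for replicates 2 and 3, 5 per direction, 8 had a promoter. Of these, 3 held the ROR element, Arntl, Nfil3 and Leo1, and 2 the E-box. Of the 20 named genes with the smallest p on the arrays as labelled, 14 had a promoter. Among those 14, 1 held the ROR element, 4 the E-box and 0 the D-box. Both sets were chosen on these data, and a link of element and difference was not tested. The runs are printed 5′ to 3′ on the gene's strand with the elements in capitals, as up to 250 bases before the start site, or for Arntl a window of 30 bases after it. A match describes the letters and not binding.
Arntl (chr7:113207529-113207558, plus strand): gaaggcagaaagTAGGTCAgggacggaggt
Nfil3 (chr13:52981040-52981289, minus strand): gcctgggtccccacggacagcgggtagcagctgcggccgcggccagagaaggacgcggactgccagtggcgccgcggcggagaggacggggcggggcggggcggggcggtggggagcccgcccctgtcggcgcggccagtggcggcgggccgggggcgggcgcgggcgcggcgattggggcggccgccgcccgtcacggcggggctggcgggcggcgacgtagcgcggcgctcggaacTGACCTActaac
Leo1 (chr9:75441274-75441523, plus strand): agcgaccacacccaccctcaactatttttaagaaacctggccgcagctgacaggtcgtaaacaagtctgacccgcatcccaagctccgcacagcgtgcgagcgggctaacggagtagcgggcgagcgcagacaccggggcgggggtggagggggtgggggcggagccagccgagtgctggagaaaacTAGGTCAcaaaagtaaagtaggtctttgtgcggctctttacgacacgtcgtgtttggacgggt
Cry1 (chr10:85185055-85185304, minus strand): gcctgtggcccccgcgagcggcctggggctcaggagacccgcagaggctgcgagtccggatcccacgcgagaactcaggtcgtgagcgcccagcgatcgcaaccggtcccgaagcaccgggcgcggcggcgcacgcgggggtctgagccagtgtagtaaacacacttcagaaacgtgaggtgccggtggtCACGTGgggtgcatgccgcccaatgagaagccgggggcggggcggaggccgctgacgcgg
Ciart (chr3:95882229-95882478, minus strand): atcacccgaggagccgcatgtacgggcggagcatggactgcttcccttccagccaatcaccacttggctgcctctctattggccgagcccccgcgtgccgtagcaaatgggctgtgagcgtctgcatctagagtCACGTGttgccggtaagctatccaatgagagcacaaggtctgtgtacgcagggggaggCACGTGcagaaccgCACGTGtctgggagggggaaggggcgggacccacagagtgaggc
Per3 (chr4:151044666-151044915, minus strand): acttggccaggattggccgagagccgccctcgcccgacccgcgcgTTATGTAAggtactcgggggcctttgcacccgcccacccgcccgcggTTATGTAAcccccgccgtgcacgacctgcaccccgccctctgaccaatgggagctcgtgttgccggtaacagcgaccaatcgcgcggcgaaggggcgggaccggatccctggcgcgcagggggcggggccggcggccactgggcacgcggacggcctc
The element of Arntl began 30 bases after one of its 2 start sites, and those of Nfil3 and Leo1 began 12 and 63 bases before it. Leo1, a subunit gene of the PAF1 complex that travels with RNA polymerase II, read 7.76, 8.51 and 8.30 in knockouts, against 8.26, 7.68 and 7.82 in controls. As with Arntl and Nfil3, control replicate 1 read with knockout replicates 2 and 3, and the Leo1 difference was 0.27 ± 0.15 with all arrays and 0.66 ± 0.11 with replicates 2 and 3. The E-box of Cry1 began 60 bases before the start site, the E-boxes of Ciart 116, 58 and 44 before it, and the D-boxes of Per3 205 and 158 before it. The 5 clock genes with an E-box were Cry1, with a difference of 0.14, and Ciart, Per1, Tef and Bhlhe41, with -0.16, -0.10, -0.17 and -0.01.

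Over the day, CT12 lay on the falling side of Nr1d1. In knockout fat Nr1d1 averaged 7.96 ± 0.44 at CT0, 9.26 ± 0.062 at CT6, 8.49 ± 0.16 at CT12 and 7.09 ± 0.022 at CT18, against 8.45 ± 0.21, 9.90 ± 0.10, 8.95 ± 0.25 and 7.41 ± 0.13 in control fat (SD, n = 3 each). The CT12 difference of Nr1d1 departed from the mean of the other times by 0.01 ± 0.18. Nr1d2 differed by 0.05 at CT0, -0.39 at CT6, -0.41 at CT12 and -0.49 at CT18. Nfil3 differed by -0.01 at CT0, 0.80 at CT6, 0.77 at CT12 and 0.32 at CT18, so its CT12 value was like that at CT6.

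Arntl was the clock gene with the largest departure of CT12 from the other times, at 0.52 ± 0.18, and this did not pass over all genes. Its knockout mean was 6.74 ± 0.25 at CT12, against a control mean of 6.34 ± 0.37 (SD, n = 3 each), whereas at CT0 the means were 7.43 ± 0.12 and 7.97 ± 0.0025. In control fat the CT12 mean was the lowest of the 4 times. The knockout mean was lowest at CT12 as well, with a smaller range over the day.

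**Figure D3:**
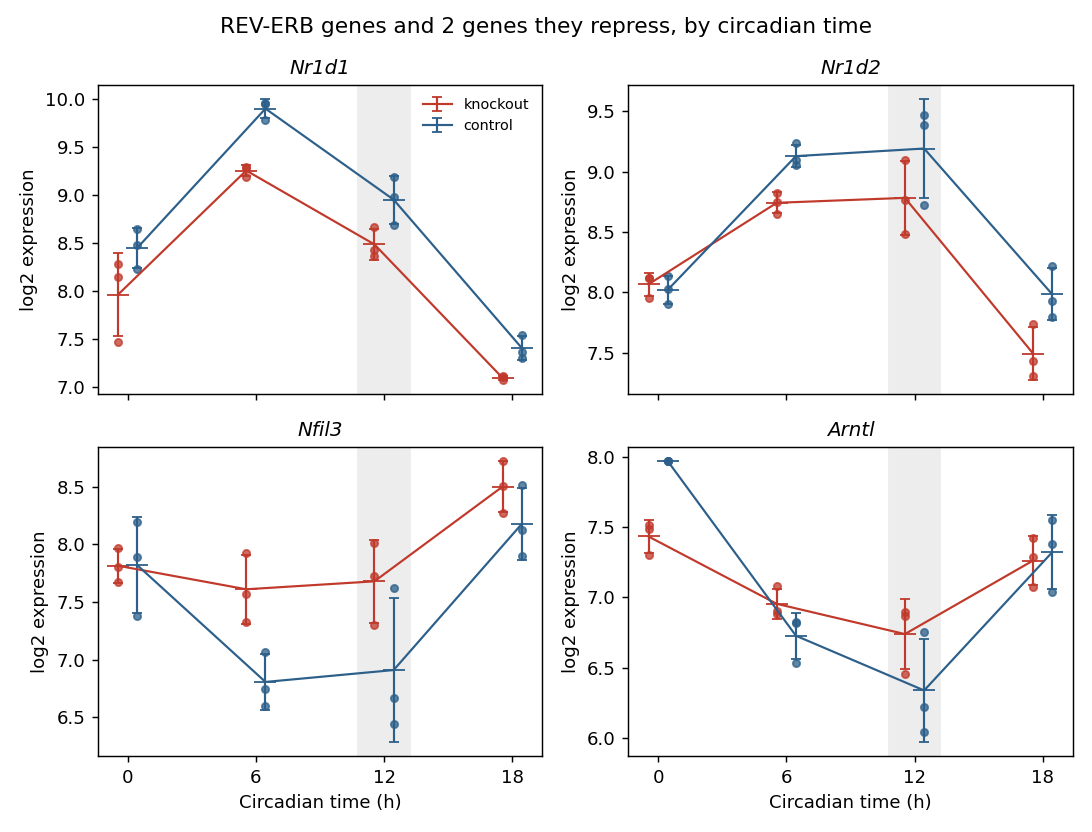
Log2 expression of Nr1d1, Nr1d2, Nfil3 and Arntl against circadian time in hours, with points for arrays, lines through the means of 3 arrays, bars for the SD and CT12 shaded. The knockout means (red) of Nr1d1 lie below the control means (blue) at all 4 times, and those of Nfil3 lie above at CT6, CT12 and CT18.

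The 20 named genes with the smallest p at CT12, 10 in each direction, were chosen on the 6 arrays as labelled. All 20 had groups that did not overlap, which this choice favours, as it does replicate 1 arrays that stand with their labels. Their differences were small, between 0.20 and 0.86 in size, and 10 of the 20 lay above the median level of 6.50. For replicates 2 and 3, the differences of the 10 higher genes lay between 0.29 and 1.11 and those of the 10 lower genes between -0.39 and -0.19.

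The higher genes included Ms4a6d and Clec4d, known from myeloid cells. Ms4a6d, a membrane protein gene of macrophages, read 6.59, 7.02 and 6.89 in knockouts, against 6.39, 5.82 and 5.88 in controls, at 0.80 ± 0.22. Clec4d, a C-type lectin receptor of myeloid cells, read 5.83, 7.18 and 5.90 in knockouts, against 5.32, 5.39 and 5.64 in controls, at 0.86 ± 0.24, with knockout replicate 2 far above the others. Slc15a3, a lysosomal peptide transporter gene, differed by 0.27 ± 0.09. Cp, the ferroxidase ceruloplasmin, read 9.40, 9.50 and 8.93 in knockouts, against 8.41, 8.73 and 8.71 in controls, at 0.66 ± 0.20. Kctd21 (0.44 ± 0.11), Rnf125 (0.59 ± 0.17), a ubiquitin ligase gene, and Acot13 (0.32 ± 0.10), an acyl-CoA thioesterase gene, were also among them. The others were Hspb9 (0.28 ± 0.07), Ccn6 (0.33 ± 0.10) and Zbtb6 (0.34 ± 0.11).

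The lower genes were led by Ampd3, an AMP deaminase, which read 7.73, 7.65 and 7.67 in knockouts, against 7.98, 7.90 and 8.03 in controls, at -0.28 ± 0.08. Fgf21, a fasting hormone that also acts on fat, read 5.26, 5.23 and 5.40 in knockouts, against 5.64, 5.71 and 5.54 in controls, at -0.34 ± 0.10. Both genes kept a gap between the groups on all arrays, and the Fgf21 values lay below the median level of all genes. Sertad2, a regulator of lipid storage in mouse adipocytes, differed by -0.20 ± 0.06 and Daam2, a formin of Wnt signalling, by -0.34 ± 0.10. The others were Rnf152 (-0.36 ± 0.11), Zfp385b (-0.31 ± 0.09), Pogk (-0.28 ± 0.08), Ntsr2 (-0.31 ± 0.10), Pura (-0.27 ± 0.09) and Tcap (-0.29 ± 0.09).

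**Figure D4:**
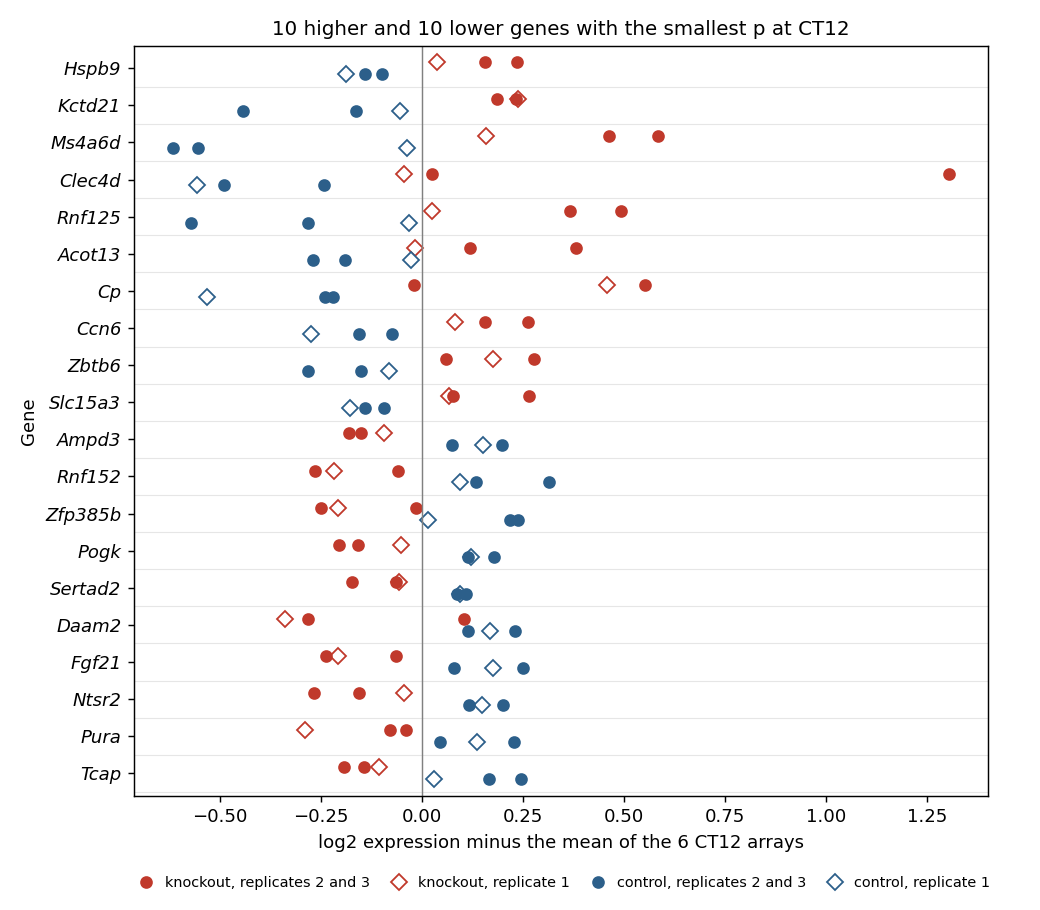
The 10 higher and 10 lower named genes with the smallest p at CT12, one per row, with each CT12 array as log2 expression minus the mean of the 6 arrays. Knockout arrays (red) lie on one side of the control arrays (blue) in every row, replicate 1 (open diamonds) included, which the choice by smallest p favours.

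Klb was chosen after its values were seen. It encodes beta-Klotho, the co-receptor of FGF21, and read 7.34, 7.90 and 8.05 in knockouts, against 7.58, 6.57 and 6.47 in controls. Knockout replicate 1 read below control replicate 1, and the difference was 0.89 ± 0.32 with all arrays and 1.46 ± 0.34 with replicates 2 and 3.

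The lipid and xenobiotic enzymes of fat also showed the crossing of the replicate 1 arrays. Of 31 measured genes of xenobiotic and ester metabolism, 25 differences were below 0, with a median of -0.15, and 1 gene was higher and 0 lower at an unadjusted p under 0.05. With replicates 2 and 3 alone, 14 were lower and 1 higher, beside 3.21% and 1.89% of all genes, with a median of -0.28, and 0 passed over all genes. Leaving out knockout replicate 1 alone gave 11 lower, beside 573 of all 19938 genes at that p in either direction. Leaving out control replicate 1 alone gave 4 lower, beside 871 of all genes. Gsta3, a glutathione transferase, read 10.75, 9.59 and 9.94 in knockouts, against 10.18, 10.76 and 10.83 in controls, at -0.50 ± 0.26 and, for replicates 2 and 3, -1.03 ± 0.26. Fmo1, a flavin monooxygenase, read 10.90, 10.23 and 10.17 in knockouts, against 10.50, 10.86 and 10.85 in controls. Ephx2, an epoxide hydrolase, was the member in the other direction, at 9.40, 9.74 and 9.74 in knockouts, against 9.48, 9.16 and 9.30 in controls, with a difference of 0.32 ± 0.15. Ces1d, Fmo1, Ces1f and Gsta3 were among the 20 genes chosen at CT0 and CT6, so the list is not independent of that choice.

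Genes of fatty acid elongation and desaturation make long and unsaturated fatty acids. Of 21 measured, 0 were higher and 0 lower at an unadjusted p under 0.05, 13 differences were below 0 and the median was -0.03. Fads2, a desaturase gene, was the 1 member of 21 whose groups did not overlap, at -0.15 ± 0.11, beside 5.12% of all genes in that direction. In replicates 2 and 3 alone, 16 of 21 differences were below 0, the median was -0.11, and 1 was higher and 0 lower at that p. Elovl6, the elongase of palmitate, read 7.37, 6.30 and 6.92 in knockouts, against 7.05, 6.99 and 6.87 in controls, a difference of -0.11 ± 0.61. Its SE was the widest of the list. Scd1, the delta-9 desaturase, read 12.46, 12.12 and 12.15 in knockouts, against 12.32, 12.32 and 12.35 in controls, at -0.09 ± 0.13.

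De novo lipogenesis, with 11 genes and a median of -0.03, and triglyceride synthesis, with 13 genes and a median of 0.00, had 0 genes past an unadjusted p of 0.05 in either direction. The same count held for lipolysis and lipid droplet genes (14, median 0.01) and fatty acid oxidation (15, median 0.05). Over replicates 2 and 3, 14 of 15 oxidation genes had differences above 0, with a median of 0.14 and 2 higher, and the lipolysis median was 0.10 with 2 higher. The lipogenesis median was then -0.02, with 1 higher and 1 lower, and that of triglyceride synthesis 0.06, with 0 in either direction. Hilpda, a lipid droplet protein that inhibits lipolysis, had the smallest p of the lipolysis list, at 0.31 ± 0.16. Among fasting-induced PPAR targets, 1 of 10, Fgf21, was lower, with a median of 0.02, and with replicates 2 and 3 the median was 0.11, with 2 higher and 1 lower. The thermogenic list had 1 of 13 lower, Prdm16, the brown and beige fat regulator, at -0.18 ± 0.08, while Ucp1, the uncoupling protein, differed by 0.03 ± 0.30. The thermogenic median was 0.01 and, for replicates 2 and 3, -0.10, with 0 past that p.

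Hmgcs1, the enzyme that makes HMG-CoA for cholesterol, read 9.27, 10.20 and 10.23 in knockouts, against 10.29, 8.74 and 8.49 in controls. The control replicate 1 array was the highest of the 6, and the difference was 0.73 ± 0.45 with all arrays and 1.60 ± 0.45 with replicates 2 and 3. The other 18 cholesterol genes gave 1 member past an unadjusted p of 0.05, Mvd, at -0.23 ± 0.09. The median of the 19 was -0.01 and, for replicates 2 and 3, 0.02, with 2 higher and 1 lower. Vegfa, an angiogenic growth factor, read 9.27, 8.85 and 8.89 in knockouts, against 8.98, 9.63 and 9.39 in controls, at -0.33 ± 0.16 and, for replicates 2 and 3, -0.64 ± 0.17.

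Genes that respond to glucocorticoids, hormones that rise before the active phase, read below 0 for 13 of 16, with a median of -0.09 and 0 past an unadjusted p of 0.05. With replicates 2 and 3 the median was -0.25, with 1 lower. Dusp1, a MAP kinase phosphatase gene of this list, read 8.75, 8.12 and 8.34 in knockouts, against 8.43, 8.77 and 8.82 in controls, with differences of -0.27 ± 0.15 and, for replicates 2 and 3, -0.57 ± 0.15. Of 18 immediate early genes, 2 were higher, Fosb at 0.24 ± 0.10 and Myc at 0.28 ± 0.13, and the median of the list was -0.04 and, for replicates 2 and 3, -0.06, with 1 higher and 1 lower. Among other circadian output genes, 11 of 17 read below 0, with a median of -0.04, and 0 were past that p. Their median with replicates 2 and 3 was -0.14, with 1 higher and 4 lower. Klf15, a regulator of fasting metabolism, differed by -0.22 ± 0.14.

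Heat shock and cold-inducible genes had a median of 0.06, with 8 of 14 differences above 0. Hsph1 was the 1 member past an unadjusted p of 0.05 with all arrays, and with replicates 2 and 3 the median was 0.10, with 2 higher and 1 lower. Cirbp, a cold-inducible RNA-binding protein, read 8.77, 8.29 and 8.31 in knockouts, against 8.60, 8.81 and 8.75 in controls. The Cirbp difference was -0.26 ± 0.15 and, for replicates 2 and 3, -0.48 ± 0.17. Among 14 imprinted genes, Zim1 differed by 1.58 ± 0.82 and its neighbour in the same imprinted cluster, Peg3, by 0.49 ± 0.40. Peg3 read 10.50, 11.25 and 10.95 in knockouts, against 11.03, 10.31 and 9.89 in controls, with control replicate 1 again among the knockouts. The imprinted list had a median of -0.05 and 0 genes past that p, and with replicates 2 and 3 a median of 0.01 and 2 higher.

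Of 15 retinol genes, 13 read below 0 with a median of -0.08 and 0 past an unadjusted p of 0.05, and with replicates 2 and 3 the median was -0.11, with 2 lower. Rbp7, a retinol-binding protein of fat vessels, read 10.70, 10.43 and 10.73 in knockouts, against 10.95, 11.48 and 10.95 in controls, at -0.50 ± 0.28. Its groups did not overlap, as was the case for Adh1 (-0.18 ± 0.12) and Lrat (-0.10 ± 0.10). Among all genes, 5.12% had the knockout arrays all below the control arrays.

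Adipocyte markers had 15 measured genes, 0 past an unadjusted p of 0.05 and a median of -0.02, and 0 past it with replicates 2 and 3. Lep, the satiety hormone leptin, was the 1 member of 15 whose groups did not overlap, beside 5.12% of all genes in that direction. It read 10.05, 9.95 and 10.17 in knockouts, against 10.68, 10.52 and 10.25 in controls, a difference of -0.43 ± 0.29. The mean level of the list was 10.45, 10.39 and 10.58 in the knockout arrays, against 10.66, 10.46 and 10.44 in the control arrays. In these bulk samples, fewer cells of a type and less RNA per cell cannot be told apart.

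Endothelial markers read lower in knockout fat for 14 of 14 measured genes, beside 56.4% of all genes. Their median was -0.26 beside -0.01 for all genes. At an unadjusted p under 0.05, 6 were lower, beside 1.66% of all genes. None passed over all genes. Ptprb, a phosphatase of vessel lining, read 8.74, 8.57 and 9.12 in knockouts, against 9.28, 9.31 and 9.31 in controls, at -0.49 ± 0.18. Kdr, the main VEGF receptor, read 8.05, 7.82 and 8.05 in knockouts, against 8.29, 8.35 and 8.34 in controls, at -0.35 ± 0.14. The knockout arrays all lay below the control arrays for 5 of the 14, Ptprb and Kdr among them, beside 5.12% of all genes. Robo4 (-0.36 ± 0.13), Erg (-0.35 ± 0.15), Egfl7 (-0.26 ± 0.11) and Vwf (-0.15 ± 0.07) were the other members past that p.

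The mean level of the endothelial list was 7.87, 7.77 and 8.15 in the knockout arrays, against 8.21, 8.17 and 8.18 in the control arrays. Knockout replicate 3 was thus close to the controls and knockout replicate 2 was the lowest. Without knockout replicate 2 the median was -0.16 and 0 members were past that p, beside 289 of all 19938 genes in either direction. Without knockout replicate 3 the median was -0.38 and 10 members were, beside 733 of all genes. There were 3 without control replicate 1, beside 871 of all genes, and 2 without control replicate 2, beside 350. With replicates 2 and 3 alone the median was -0.24 and 2 members were past it, beside 3.21% of all genes. In that fit 13 of 14 differences were below 0, beside 57.3% of all genes. The medians of the list were -0.06 at CT0, -0.18 at CT6 and -0.21 at CT18, so it was below 0 at every time.

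Smooth muscle and pericyte markers gave 12 of 13 differences below 0, beside 56.4% of all genes. Their median was -0.27, and 0 were past an unadjusted p of 0.05. For 7 of them the knockout arrays all lay below the control arrays, beside 5.12% of all genes. Without the replicate 1 arrays the median was again -0.27, with 11 of 13 below 0 and 0 past that p. Tagln, an actin-binding protein of smooth muscle, read 8.47, 8.29 and 8.37 in knockouts, against 8.79, 8.99 and 9.01 in controls, at -0.55 ± 0.34. Myh11, the smooth muscle myosin, read 8.72, 8.65 and 8.96 in knockouts, against 9.04, 9.46 and 9.41 in controls, at -0.53 ± 0.39. The SE comes from all 24 arrays. In a fit of the 6 CT12 arrays alone 8 members were lower at an unadjusted p under 0.05. Of all 19938 genes, 618 were under that p in the same fit, in either direction. At CT0 the median of the list was 0.38, at CT6 0.02 and at CT18 -0.31, so its sign was not the same at every time.

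Macrophage markers read higher for 13 of 15 genes, beside 43.6% of all genes, with a median of 0.24. Past an unadjusted p of 0.05, 2 were higher, beside 0.838% of all genes. Fcgr1, an Fc receptor gene, read 6.62, 6.86 and 6.67 in knockouts, against 6.49, 6.24 and 6.50 in controls, at 0.31 ± 0.11. C1qb, a complement subunit, read 7.88, 8.41 and 7.93 in knockouts, against 7.92, 7.60 and 7.57 in controls, at 0.38 ± 0.18. Knockout replicate 2 was the highest array for both. Cd68, a lysosomal protein of macrophages, had its highest value on the same array, and read 8.65, 10.03 and 8.99 in knockouts, against 8.92, 8.57 and 8.39 in controls.

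The mean level of the macrophage list was 8.17, 8.47 and 8.21 in the knockout arrays, against 8.16, 7.97 and 8.02 in the control arrays. Without knockout replicate 2 the median was 0.16 and 0 members were past an unadjusted p of 0.05, and without control replicate 2 it was 0.19 and 0 were. Without control replicate 3, 1 was. The higher myeloid genes named above, Ms4a6d and Clec4d, were likewise highest in knockout replicate 2. Their part in the result was not tested. The medians of the list were -0.24 at CT0, 0.22 at CT6 and -0.25 at CT18. Without the replicate 1 arrays the CT12 median was 0.28, and 5 members were higher and 0 lower at an unadjusted p under 0.05.

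Mesothelial markers, of the lining of body cavities, read lower for 8 of 8 genes, beside 56.4% of all genes. Their median was -0.24, and 0 were past an unadjusted p of 0.05. Knockout replicate 2 was the lowest array for the mean of the list, at 7.53, beside 7.91 and 7.68 in knockout replicates 1 and 3, against 7.81, 7.85 and 8.09 in the controls. Without that array the median was -0.10, and with replicates 2 and 3 it was -0.40, with 2 lower at an unadjusted p under 0.05. T cell markers (11 genes, median 0.05) and B cell markers (10 genes, median 0.06) each had their highest mean level on knockout replicate 2. Those means were 6.65 and 6.59, against at most 6.37 on the control arrays. The median level of the T cell list was not highest there, at 6.41, 6.30 and 6.38 in the knockouts, against 6.27, 6.17 and 6.42 in the controls. Fibroblast and progenitor markers gave a median of -0.09 over 15 genes. The medians of these 3 lists with replicates 2 and 3 were 0.07, 0.09 and -0.03.

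Collagen and matrix genes were below 0 for 21 of 22, beside 56.4% of all genes, with a median of -0.14. At an unadjusted p under 0.05, 1 was lower, beside 1.66% of all genes. That gene was Timp3, an inhibitor of matrix proteases, which read 9.54, 9.16 and 9.46 in knockouts, against 9.64 and 9.75 in control replicates 1 and 2 and a higher value in control replicate 3, at -0.41 ± 0.15. The pattern of the list rested on control replicate 1, whose mean level was 8.41, against 8.10 on each of control replicates 2 and 3. Without it, 12 of 22 were below 0 and the median was -0.03, and with replicates 2 and 3 the median was -0.02. Without knockout replicate 2 the median was -0.06. Without knockout replicate 3 it was -0.22 with 6 genes lower at an unadjusted p under 0.05, beside 733 of all 19938 genes in either direction.

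**Figure D5:**
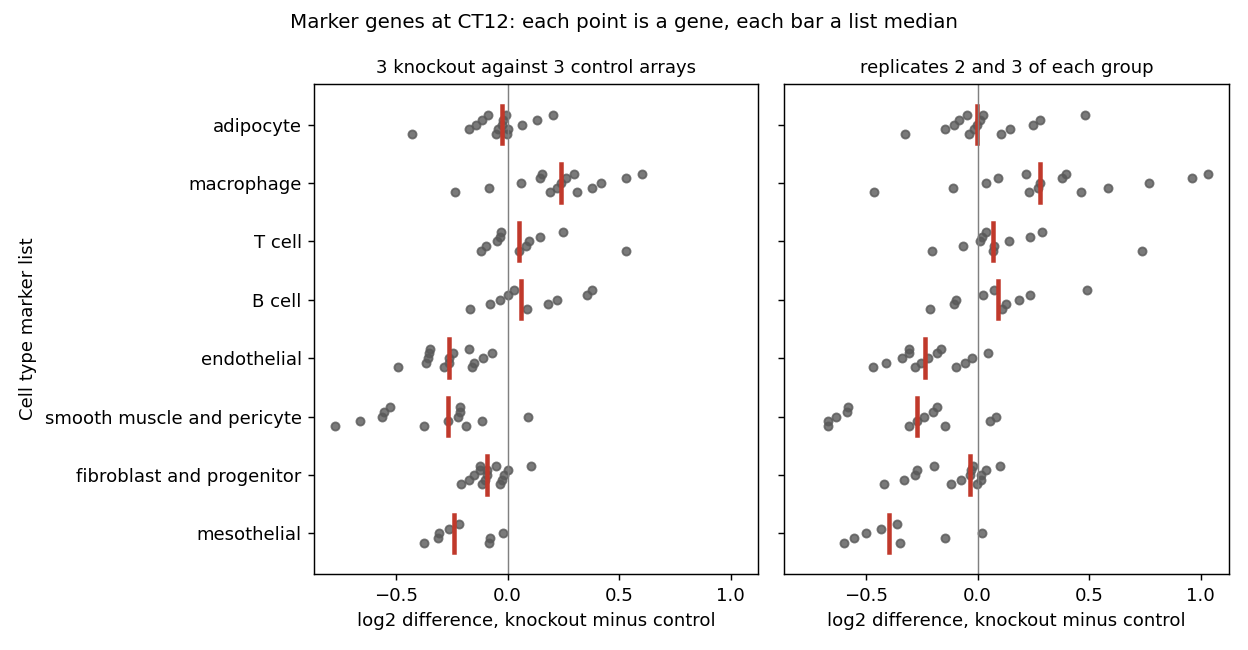
Log2 difference, knockout minus control, of each marker gene (points) and the median of its list (red bars) at CT12, for all 6 arrays and for replicates 2 and 3. Endothelial, smooth muscle and mesothelial medians lie between -0.40 and -0.24 in both panels, macrophage medians are at 0.24 and 0.28, and adipocyte medians are near 0.

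Whether the genotype difference at CT12 departed from that at the other times was tested as a contrast of contrasts, and 0 of 19938 genes passed (0%). The unadjusted p was under 0.05 for 632 genes (3.17%), of which 221 were higher (1.11%) and 411 lower (2.06%) at CT12 than over CT0, CT6 and CT18. With the CT12 replicate 1 arrays left out, 0 passed and 963 were under that p. In simulated data the fit recovered 44.8% of genes whose difference departed by 0.5, 94% by 1 and 100% by 2. It called 10 unchanged genes, and the limit given above for the simulated arrays holds here too.

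Of the named genes with the smallest p for this departure, Ms4a6d departed by 0.83 ± 0.25, its differences at CT0, CT6 and CT18 being -0.07, 0.23 and -0.25. Snx24, a sorting nexin gene, departed by 0.37 ± 0.10, Nudt5, which hydrolyses ADP-ribose, by 0.40 ± 0.12, Zfp263 by 0.33 ± 0.10 and Hspb9 by 0.28 ± 0.08. In the other direction, Ptpru, a receptor phosphatase, departed by -0.42 ± 0.11, with differences of -0.19 at CT12 and 0.29, 0.17 and 0.25 at CT0, CT6 and CT18. Trpv3, a warmth-sensitive channel, departed by -0.46 ± 0.12, Ntsr2 by -0.42 ± 0.11, Rasl10b by -0.36 ± 0.10 and Sertad2 by -0.26 ± 0.07. Ptpru and Trpv3 read lower at CT12 while their differences were above 0 at the other 3 times.

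In a further fit, replicate 3 of both groups at CT18 was left out together with the CT12 replicate 1 pair. The CT18 arrays enter the CT12 contrast only through the residual spread. That CT18 pair was chosen with earlier results of these data known, and its position on genotype-related genes is not shown here. In that fit 10 genes passed at CT12 (0.0502%), with limma adjusted p between 0.0128 and 0.0470. Of these, only Hsph1 passed with the CT18 pair kept. Hsph1, Leo1, Litaf, Arntl, Klb and Zim1 rose, Litaf, a lysosomal membrane protein gene, by 0.56 ± 0.10 and Zim1 by 2.81 ± 0.41. Nr1d2, Ces1d, Kcnj15 and Adamts1 fell. Nr1d2 fell by 0.80 on the log2 scale and Ces1d, the carboxylesterase, by 0.89. Kcnj15, a potassium channel gene, fell by 1.12 and Adamts1, a secreted protease gene, by 0.92. For 10 of the 10, the CT12 replicate 1 pair differed in the direction opposite to the call. As for Hsph1 above, these p describe the arrays that remain and are no independent test.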

How the data were processed

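Expression was measured on 24 microarrays of mouse inguinal fat, 1 per mouse, in 8 groups of 3. Per the labels' protocols, 50 ng of RNA was amplified and labelled. The deposited table holds log2 values made with RMA, per the submitters' processing notes, and its version is not given in the sources used here. Values were used as deposited, and 0 columns were left unmapped. The platform annotation gave a single symbol to 21789 of 35556 probe sets, several to 1621 and none to 12146. The brightest probe set represented each of 19938 genes, dim genes included. Precision is limited by the number of arrays.

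Group means were fitted with limma 3.58.1 (lmFit, eBayes) in R 4.3.3, with 16 residual and 5.03 prior degrees of freedom. The contrasts were genotype at CT12 and that difference minus its mean over CT0, CT6 and CT18. P-values were adjusted over all genes by Benjamini-Hochberg at a threshold of 0.05. An exact test of 3 against 3 arrays cannot go below 0.1. The fit was tested on simulated data. The labels give biological replicates.

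Replicate numbers are shared between groups. Deviations of same-numbered CT12 arrays correlated at -0.37, -0.029 and -0.287. Those at CT0 correlated at 0.189, 0.374 and 0.327, and those at CT6 and CT18 at -0.119 to 0.157. Since they were not over 0.1 for every pair, the numbers were not taken as pairs.

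Named genes were the 18 clock genes, the 10 per direction with the smallest p at CT12, the 5 per direction with the smallest p against other times, the 10 per direction chosen at CT0 and CT6, the 5 per direction with the smallest p without the CT12 replicate 1 arrays, and up to 6 per list described. Adipoq, Elovl6, Scd1, Ucp1 and Klb were named outside this rule, after their values were seen. The members, the 37 pathway and 17 marker lists, the rule and the left-out arrays were chosen with earlier results of these data known.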

Additional observations from a re-analysis of the deposited data

How the results depend on the processing

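Normalization by quantiles, the mean of all probe sets, array weights, a trended robust prior, genes above the median level and the 6 CT12 arrays alone, which was run for the CT12 contrast only, each left 0 genes past an adjusted p of 0.05. The counts at an unadjusted p under 0.05 were 497 for CT12 and 632 for CT12 against the other times. Among genes above the median level they were 249 and 261, with fewer genes tested, and with array weights 1239 and 1082, the cause of which was not tested. Without both CT12 replicate 1 arrays, 1 gene passed at CT12 and 0 against the other times, and the unadjusted counts were 1018 and 963. Without these and both CT18 replicate 3 arrays, 10 and 0 passed, and the unadjusted counts were 1156 and 1279. Leaving out each CT12 array in turn gave 0 adjusted calls, unadjusted counts of 289 (without knockout replicate 2) to 871 (without control replicate 1) at CT12, and of 405 (without control replicate 2) to 988 (without control replicate 1) against the other times. With the replicate number as a block, 0 genes passed and the unadjusted counts were 511 and 694. In that fit 2 of 18 clock genes were higher and 1 lower, and 5 smooth muscle markers were lower, at an unadjusted p under 0.05. Of 317 named gene entries, 25 had the other sign without both CT12 replicate 1 arrays, and 12 to 17 when 1 array was left out. Of 54 list medians, 14 had the other sign without both replicate 1 arrays.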

Other observations

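Gene groups with no place in the comparisons above had medians between -0.03 and 0.09 at CT12, beside -0.01 for all genes. The respiratory chain genes (23, median -0.02), glycolysis and glucose uptake (15, median -0.01), insulin signalling (13, median 0.09), NAD synthesis and sirtuins (17, median -0.03) and the unfolded protein response (17, median 0.08) each had 0 genes past an unadjusted p of 0.05 with all arrays. Markers of natural killer cells (10, median -0.01), neutrophils (9, median -0.01), skeletal muscle (14, median -0.02) and liver (7, median -0.01) likewise had 0. With replicates 2 and 3 the medians were, in the same order, 0.04, 0.01, 0.05, 0.00, 0.12, 0.02, -0.02, -0.11 and -0.08. At that p, 1 respiratory chain and 1 neutrophil gene were then higher. In the same fit 1 gene each of insulin signalling, NAD synthesis and the unfolded protein response was lower, as were 2 skeletal muscle genes.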
